A study of Mus musculus with 1073 samples.

Results

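The Hox cluster genes encode homeodomain transcription factors that lie side by side in 4 clusters, Hoxa on chromosome 6, Hoxb on chromosome 11, Hoxc on chromosome 15 and Hoxd on chromosome 2 (GRCm38). They were chosen here by name, as every gene symbol of the filtered count table made of Hox, a cluster letter and a paralogue number. The rule gave 15 of the 15967 genes of that table, of 39 Hox cluster genes in the annotation. Among them were Hoxa7, Hoxa9 and Hoxa10, then Hoxb1, Hoxb2, Hoxb4, Hoxb5, Hoxb6, Hoxb7 and Hoxb9, then Hoxc8, and Hoxd1, Hoxd8 and Hoxd10. The other 24 had been removed by the authors' gene filter and are described last, from the unfiltered table.

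The clusters span chr6:52155590-52260880 (Hoxa), chr11:96194316-96368256 (Hoxb), chr15:102921103-103036852 (Hoxc) and chr2:74668310-74765142 (Hoxd), and held 4 of 11, 7 of 10, 1 of 9 and 3 of 9 of their genes as members.

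Single cells of mouse yolk sac were sorted, captured on a microfluidic chip and sequenced over the full transcript, with 1 library per cell. The filtered table held 926 of 1073 captured cells in 13 populations from embryonic day E7.25 to E10.5. The 2 earliest were sorted for a GFP reporter in the Flk1 locus, the gene of a VEGF receptor of mesoderm and endothelium, from embryos with 1 reporter allele, at E7.25 (73 cells in 1 sequencing lane and 74 in another) and E7.75 (53 and 87 cells). The paper states that this reporter line was kept on a C57BL/6 background, and all later cells came from C57BL/6 yolk sacs. Haematopoietic progenitor cells (HPC) were TER119-CDH5+CD41+ at E8.25 (73 cells) and E8.5 (89 cells). Those of E9.5 (46 cells) and E10.5 (87 cells) were TER119-CDH5-CD45+CD41low, so that the gate changed between E8.5 and E9.5. Primitive erythrocytes (EryP) were TER119+ and CD41-CDH5- at E8.5 (66 cells) and E10.5 (3 cells), the latter also CD45-. Cells of the megakaryocyte lineage (Mk) were TER119-CDH5-CD41+ at E8.5 (37 cells) and TER119-CDH5-CD45-CD41high at E10.5 (73 cells). Macrophages (Mac) were TER119-CDH5-CD41-CD45+ at E10.5 (25 cells). Endothelial cells (Endo) were TER119-CD41-CDH5+ at E8.5 (79 cells) and E10.5 (61 cells), the latter also CD45-. No embryo or litter is named for a cell, so each population is 1 sample. Nothing was tested, SDs are over cells, and intervals are exact 95% Clopper-Pearson intervals that cover counting error only.

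Total counts per cell ran from 483830 to 5943204 with a median of 1887347.5. The cells of E7.25, of E8.25 and of E8.5 shared 1 flow cell and those of E7.75, of E9.5 and of E10.5 shared a second, and stage and flow cell cannot be told apart between them. In 293 of 926 cells there were at least 5 counts of Xist together with at least 5 counts of Y-linked genes, transcripts normally made by cells of opposite sex. There were 59 such cells of 79 in E8.5 Endo, 40 of 89 in E8.5 HPC, 30 of 66 in E8.5 EryP and 26 of 61 in E10.5 Endo. No doublet caller was run. Levels are given as CPM, read counts that the authors scaled by a size factor of each cell. Marker genes went with the sort labels in most populations, with median sums of 2732 and 4783 CPM for 7 endothelial markers in Endo and 2647 CPM for 4 macrophage markers in Mac. The exception was E8.5 Mk, where the 5 erythroid markers summed to a median of 23001.9 CPM and the 5 megakaryocyte markers to 183.6 CPM, against 21.1 and 5331 CPM in E10.5 Mk.

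As background, Hox genes give cells a position along the head to tail axis. Genes of low paralogue number lie at the 3' end of a cluster and are switched on first, in the late primitive streak, and those of higher number follow in order, a property called temporal collinearity. HOX proteins bind DNA together with PBX and MEIS partners, and retinoic acid and CDX factors activate the clusters while Polycomb proteins keep them silent. In blood, HOXA9 and HOXB4 are known for their part in stem and progenitor cells of the later embryo and the adult.

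The promoters of Hoxb1 and Hoxb4 are shown because these genes of the same cluster stood at opposite ends of the pattern described here, one seen almost only in Flk1-GFP+ cells and the other in most later populations. Both sequences are 300 bases long, span a transcript start near their end, and were taken from RefSeq on GRCm38.p6, plus strand. Hoxb1 lies at chr11:96365508-96365807 and Hoxb4 at chr11:96318017-96318316. Capitals mark a joint Pbx-Hox site (TGATNNAT) in Hoxb1 and a retinoic acid receptor half-site (AGGTCA, read on the other strand) in Hoxb4.
Hoxb1: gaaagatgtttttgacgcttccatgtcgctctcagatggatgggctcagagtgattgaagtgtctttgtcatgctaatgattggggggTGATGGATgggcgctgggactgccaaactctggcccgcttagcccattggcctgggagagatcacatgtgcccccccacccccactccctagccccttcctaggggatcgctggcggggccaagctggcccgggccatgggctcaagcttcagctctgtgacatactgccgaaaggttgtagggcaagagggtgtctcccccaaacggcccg
Hoxb4: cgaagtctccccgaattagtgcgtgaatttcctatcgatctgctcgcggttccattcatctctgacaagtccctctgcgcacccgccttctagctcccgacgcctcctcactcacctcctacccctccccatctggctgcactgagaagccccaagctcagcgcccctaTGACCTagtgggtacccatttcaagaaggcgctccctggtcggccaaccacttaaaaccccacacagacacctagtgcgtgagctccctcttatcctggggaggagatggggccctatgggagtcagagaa
Both strands were searched for the 2 motifs and for the TATA box letters TATAAA. TGATNNAT was present in 8.86% of 32817 promoters of this length, AGGTCA in 16.3% and TATAAA in 13.6%. Of the 9 promoters found for 8 members, that of Hoxb1 held the Pbx-Hox letters, those of Hoxb4, Hoxd8 and Hoxd10 held the half-site letters, and 1 of 2 Hoxa10 promoters held the TATA letters. None of the 3 was in the promoters of Hoxa7, Hoxa9 and Hoxd1. A match of letters is a description and not a bound site.

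A member was counted as detected in a cell with at least 1 count. Flk1-GFP+ cells and endothelial cells carried several Hox genes per cell, HPC and macrophages had lower means, and erythroid and megakaryocytic cells carried next to none. The mean number of members per cell was 2.80 ± 1.89 (SD over cells) in E7.25 Flk1-GFP+ cells and 4.38 ± 2.98 in E7.75 Flk1-GFP+ cells, with at most 8 and 13 in a cell. It was 3.14 ± 1.38 in E8.5 Endo and 2.74 ± 1.42 in E10.5 Endo. In HPC, in the order of the stages, it was 1.47 ± 1.39, then 1.17 ± 1.32, then 0.391 ± 0.649, and 1.03 ± 1.43 in the E10.5 cells. At these stages 41.1%, 34.8%, 4.35% and 28.7% of HPC had 2 or more members. Mac had 0.24 ± 0.523, E8.5 Mk 0.0541 ± 0.229 and E10.5 Mk 0.0411 ± 0.200. All 69 EryP cells had 0. Without the cells with transcripts of both sexes, the means were 2.72, 4.27, 3.50 and 2.49 in the 2 Flk1-GFP+ and the 2 Endo populations, and 1.36, 1.06, 0.273 and 1.09 in HPC.

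**Figure D1:**
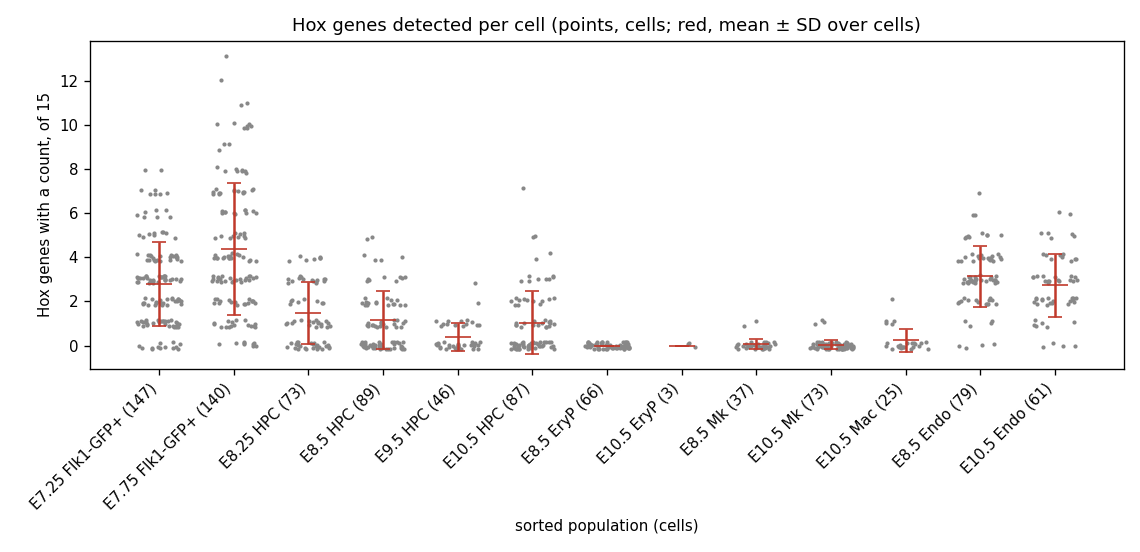
Number of the 15 Hox cluster genes with at least 1 count (vertical axis) in each cell of the 13 sorted populations (horizontal axis, cells in brackets). Points are cells, shifted slightly at random so that equal values can be seen, and red bars are the mean ± SD over cells. E7.75 Flk1-GFP+ cells reach 13 genes and every EryP cell is at 0.

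The clusters differed in where they were seen. At least 1 of the 7 Hoxb members was detected in 81.0% of E7.25 and 86.4% of E7.75 Flk1-GFP+ cells, in 94.9% of E8.5 and 90.2% of E10.5 Endo, and in 65.8%, 53.9%, 32.6% and 26.4% of HPC from E8.25 to E10.5. The 4 Hoxa members followed another course. They were in 4.11%, 5.62% and 0 of HPC at the first 3 stages, and then in 32.2% (22.6 to 43.1) of E10.5 HPC. Hoxd members were in 32.7% and 40.0% of Flk1-GFP+ cells, in 12.7% and 18.0% of Endo, and in 8.99% of E8.5 HPC. Hoxc8 was in 27.1% of E7.75 Flk1-GFP+ cells and in at most 3.28% of any other population. The share of all detections that fell on Hoxb genes was 91.6%, 87.5%, 100% and 37.8% in HPC at the 4 stages, against 60.3% and 59.0% in Flk1-GFP+ cells and 81.4% and 83.8% in Endo.

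**Figure D2:**
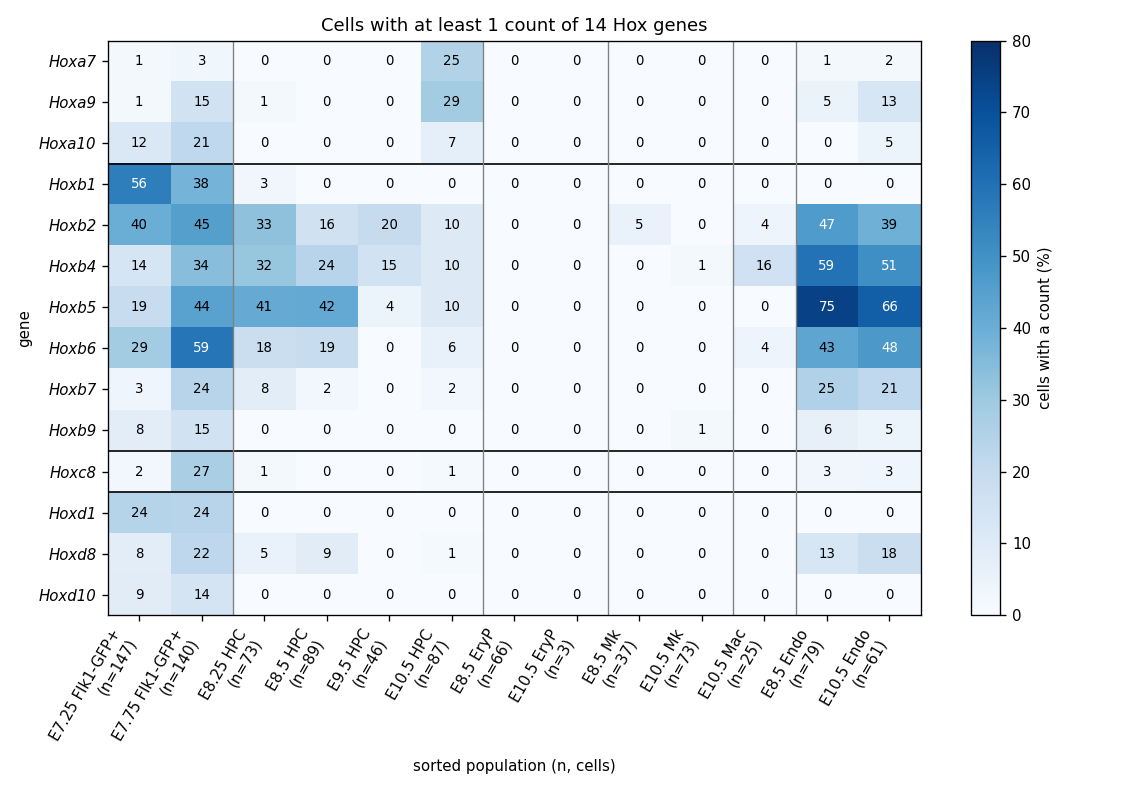
Percent of cells with at least 1 count (colour and printed value) for 14 Hox genes (rows, by cluster and paralogue number, clusters divided by black lines) in each sorted population (columns, with the number of cells). Hoxb2 to Hoxb6 fill the Endo columns, Hoxa7 and Hoxa9 stand out in E10.5 HPC at 25% and 29%, and the EryP columns are 0 throughout.

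By paralogue group the same detections shifted towards higher numbers in Flk1-GFP+ cells, while Endo and HPC followed other courses. In Flk1-GFP+ cells, members of groups 4 to 8 were in 48.3% (40.0 to 56.7) at E7.25 and 79.3% (71.6 to 85.7) at E7.75, and those of groups 9 to 13 in 22.4% (16.0 to 30.1) and 38.6% (30.5 to 47.2). In Endo, groups 4 to 8 were in 94.9% and 88.5% of cells. Groups 9 to 13 were in 10.1% (4.47 to 19.0) and 21.3% (11.9 to 33.7) of Endo, with overlapping intervals. In HPC, groups 4 to 8 were in 53.4%, 53.9%, 17.4% and 36.8% of cells over the stages. Groups 9 to 13 were in 1 of 73, 0 of 89 and 0 of 46 HPC and then in 25 of 87 (28.7%).

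Between E7.25 and E7.75 Hoxb4, Hoxb5, Hoxb6, Hoxb7, Hoxc8, Hoxd8 and Hoxa9 became more frequent in Flk1-GFP+ cells, with intervals that did not overlap. Those of Hoxb2 and Hoxd1 overlapped, and Hoxb1 became less frequent. Hoxd8 was in 8.16% of E7.25 cells but in 7.55% of the first E7.75 lane. The share of all genes with intervals that did not overlap was not computed. Of 13430 genes seen in at least 10% of cells at either stage, 5.82% had a mean CPM (plus 1) at least 2-fold higher at E7.75 and 5.76% at least 2-fold lower. Of the 15 members, 14 passed that filter, 8 were at least 2-fold higher and 0 lower, and their median log2 ratio was 1.46 against 0.06 for all genes. The 8 were Hoxa9, Hoxa10, Hoxb5, Hoxb6, Hoxb7, Hoxc8, Hoxd8 and Hoxd10. With a pseudocount of 10 in place of 1 the count was 0. Hoxb4 passed 2-fold with a pseudocount of 0.1, at a log2 ratio of 1.56.

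Hoxb6 was the most frequent member at E7.75. It was in 42 E7.25 cells (28.6%, 21.4 to 36.6) with a mean of 1.44 ± 4.01 CPM, and in 82 of 140 E7.75 cells (58.6%, 50.0 to 66.8) with a mean of 7.66 ± 13.0 CPM. Hoxb5 went from 19.0% to 44.3% of cells (1.26 ± 3.90 to 5.54 ± 25.1 CPM, the latter with 1 cell at 286.1 CPM). Hoxb4 went from 13.6% to 34.3% and Hoxb7 from 3.40% to 23.6%. In none of these 4 Hoxb genes did the intervals of the stages overlap, but the share of all genes for which this holds was not computed.

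Hoxc8, a gene known for its role in the trunk, was in 2.04% of E7.25 and 27.1% of E7.75 cells, at 0.304 ± 3.11 and 5.74 ± 19.0 CPM. Hoxa9 went from 2 to 21 cells and from 0.117 ± 1.04 to 3.40 ± 17.0 CPM, with the highest cell at 172.4 CPM. Hoxa10 was already in 17 cells at E7.25 and in 30 at E7.75, Hoxb9 in 12 and 21 cells and Hoxd10 in 13 and 20 cells. The intervals of these 3 overlapped between the stages, and in the first E7.75 lane Hoxa10 was in only 13.2% of cells. Hoxa7 stayed rare, with 2 and 4 cells.

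The genes of paralogue group 1 are the first of each cluster to be expressed in the embryo. Hoxd1 was in 23.8% of E7.25 and 23.6% of E7.75 cells. Hoxb1 was in 55.8% (47.4 to 64.0) and 37.9% (29.8 to 46.4) of cells, but its mean was 15.5 ± 27.2 CPM at E7.25 and 18.1 ± 48.0 CPM at E7.75. The latter was 6.61 CPM in the first E7.75 lane and 25.2 CPM in the second. Fewer cells thus had Hoxb1 at the later stage, and those that did had a median of 22.5 against 18.1 CPM. Hoxb2 was in 40.1% and 45.0%. Of its exonic bases 27.3% are shared with the antisense Hoxb3os, whose reads cannot be told apart from it without strand, and the share is 20.4% for Hoxa7 with the antisense Hoxaas3 and 8.80% or less for the other members.

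Each stage of Flk1-GFP+ cells was sequenced in 2 lanes, and the shares in the E7.75 lanes were farther apart than those in the E7.25 lanes for several genes. Hoxd8 was in 7.55% of 53 cells of the first E7.75 lane and 31.0% of 87 cells of the second, Hoxd10 in 3.77% and 20.7%, Hoxb1 in 24.5% and 46.0%, and Hoxa9 in 24.5% and 9.20%. Median totals in these lanes were 2759528 and 1620915 counts, and cells with transcripts of both sexes were 0 and 17. Between the first lanes of both stages 7 members were at least 2-fold higher at E7.75, and 5 when the second E7.25 lane was set against the first E7.75 lane, each with Hoxb1 lower, at log2 ratios of -1.04 and -1.19. The share of all genes that were 2-fold apart between single lanes was not computed. Hoxb6 (56.6% and 59.8%), Hoxc8 (28.3% and 26.4%) and Hoxb9 (15.1% and 14.9%) were close between the lanes. In the E7.25 lanes Hoxb1 was at 58.9% and 52.7%.

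**Figure D3:**
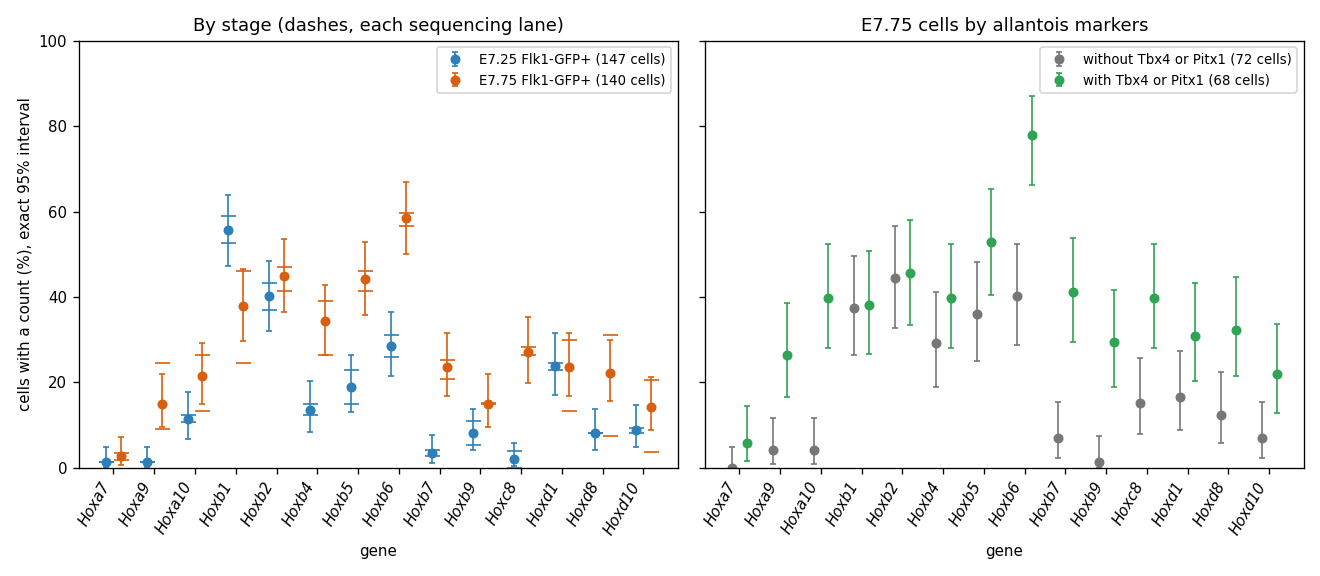
Percent of Flk1-GFP+ cells with each of 14 Hox genes. The left panel compares E7.25 with E7.75 (dots with exact 95% intervals, dashes for each of 2 sequencing lanes), and the right panel compares E7.75 cells with and without Tbx4 or Pitx1. Hoxb4 to Hoxb7 and Hoxc8 lie higher at E7.75 while Hoxd1 does not, and the right panel separates most for Hoxa10, Hoxb7, Hoxb9 and Hoxb6.

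Flk1-GFP+ cells are a mixture, so their Hox genes were set beside 2 groups of marker genes. Precursors of blood and endothelium share a receptor (Kit) and transcription factors (Tal1, Lmo2, Gata2, Hhex and Fli1), and cells with 4 or more of these 6 genes were called haemato-endothelial. At E7.75 the 91 such cells had 3.71 ± 2.79 members and the 49 others 5.61 ± 2.96. Hoxb1 was in 28.6% (19.6 to 39.0) of the haemato-endothelial cells and 55.1% (40.2 to 69.3) of the others, and Hoxb6 in 49.5% and 75.5%. The lanes differed for Hoxb1, which was in 28.6% of haemato-endothelial and 16.7% of other cells in the first E7.75 lane and in 28.6% and 77.4% in the second. Hoxb6 was at 45.7% and 77.8% in the first and 51.8% and 74.2% in the second. Hoxb4 went the other way at 37.4% and 28.6%, with overlapping intervals. At E7.25 the 86 haemato-endothelial and 61 other cells had 2.84 ± 1.95 and 2.74 ± 1.83 members. Hoxd8 was in 12.8% (6.56 to 21.7) and 1.64% (0.0415 to 8.80) of these E7.25 cells, with overlapping intervals, and in 20.9% and 24.5% at E7.75.

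At E7.75 most cells with a posterior Hox gene had allantois markers. Tbx4 and Pitx1, transcription factors of the allantois and of hindlimb mesoderm, were seen in 68 of 140 E7.75 cells, and Tbx2 of the same list was not in the filtered table. Hoxa10 was in 39.7% (28.0 to 52.3) of the cells with either and 4.17% (0.868 to 11.7) of the 72 without. Hoxb9 was in 29.4% and 1.39%, and Hoxa9 in 26.5% and 4.17%. Hoxd10 was in 22.1% (12.9 to 33.8) and 6.94% (2.29 to 15.5), with overlapping intervals. Members of lower groups also differed, such as Hoxb7 (41.2% and 6.94%), Hoxb6 (77.9% and 40.3%) and Hoxc8 (39.7% and 15.3%). Hoxb1 (38.2% and 37.5%) and Hoxb2 (45.6% and 44.4%) were at like shares. Any member of groups 9 to 13 was in 63.2% and 15.3%, with similar depths in both (medians of 1943096 and 2060754.5 counts). Within haemato-endothelial cells the shares were 54.1% of 37 and 18.5% of 54 cells. In the first lane they were 48.3% of cells with and 16.7% of cells without the markers, and in the second 74.4% and 14.6%. At E7.25 the markers were in 17 cells, of which 58.8% had a posterior member, against 17.7% of the other 130, so that 10 of the cells with a posterior member had a marker and 23 did not.

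Evx1, a homeobox gene of the posterior primitive streak next to the 5' end of the Hoxa cluster, was in 48.3% of E7.25 and 22.1% of E7.75 Flk1-GFP+ cells and in no cell of any later population. At E7.75 Hoxa10 was in 54.8% of the 31 cells with Evx1 and 11.9% of those without. Hoxa7 was in 4 of the 31 and in none of the cells without Evx1, which allows up to 2.75%. The gene was chosen as a neighbour of the cluster. Other neighbours were broadly seen, such as Cbx5 beside Hoxc in every cell and Mtx2 beside Hoxd in 57.4% to 100% of each population. Skap1 beside the 3' end of Hoxb was in 58.9% and 31.5% of HPC at E8.25 and E8.5, in 0 of 46 at E9.5 and in 2.30% at E10.5, and in 45.6% of E8.5 Endo and 0 of 61 E10.5 Endo.

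In endothelial cells the Hoxb cluster was seen from Hoxb2 to Hoxb7 at both stages. Hoxb5 was the most frequent member, in 59 of 79 E8.5 cells (74.7%, 63.6 to 83.8) and 40 of 61 E10.5 cells (65.6%, 52.3 to 77.3). Hoxb4 was in 59.5% and 50.8%, Hoxb2 in 46.8% and 39.3%, Hoxb6 in 43.0% and 47.5%, and Hoxb7 in 25.3% and 21.3%. Hoxb1 was in 0 of 79 and 0 of 61 cells, which allows up to 3.80% and 4.92%, and so were Hoxd1 and Hoxd10.

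The means and the shares of Endo cells did not move together. The median number of genes detected per cell was 8437 at E8.5 and 6412 at E10.5, at median totals of 1874645 and 1943904 counts, and its part in this was not tested. Of 13011 genes seen in Endo, 18.4% were at least 2-fold higher at E10.5 and 17.1% lower. Of 8 members that passed the filter, Hoxa9, Hoxb2, Hoxb4, Hoxb5, Hoxb6 and Hoxd8 were at least 2-fold higher and 1 was lower. Hoxb5 had a mean of 13.3 ± 16.4 CPM at E8.5 and 27.9 ± 53.9 at E10.5, with ranges up to 89.4 and 318.2 CPM, while its share of cells was the lower at E10.5. By shares of cells whose intervals do not overlap, 0 of these 6 differed, and the share of all genes that did was not computed. Scaled to the cell's own total instead, Hoxb4 and Hoxb5 were under 2-fold, at log2 ratios of 0.99 and 0.88, and without cells with transcripts of both sexes, which leaves 20 and 35 cells, at 0.32 and 0.69.

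The highest Hox levels in any cell were those of Hoxd8 in a few E10.5 endothelial cells. It was in 11 of 61 cells, whose values were 6914, 3461, 754.9, 353.8, 106.9, 27.9, 10.1, 7.31, 1.77, 0.385 and 0.308 CPM. The first 2 cells had 1491 and 974 Hoxd8 counts among totals of only 605402 and 590547, and scaled to the cell's own total their values were 2463 and 1649 CPM. At E8.5 the 10 cells with Hoxd8 of 79 had at most 65.8 CPM. The mean at E10.5 was 190.8 ± 985 CPM and 78.7 CPM without the highest cell, and the shares of cells were 12.7% (6.24 to 22.1) and 18.0% (9.36 to 30.0). Hoxa9 was likewise at 532.3 and 307.8 CPM in 2 E10.5 cells, at 42.2 CPM or lower in 6 others, and at 9.64 CPM or lower in 4 cells at E8.5. The cell at 307.8 CPM was also the 1 E10.5 Endo cell with Hoxa7, at 107.8 CPM.

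HPC at E8.25 and E8.5 carried a Hoxb set like that of endothelium at lower shares. Hoxb5 was in 30 of 73 (41.1%, 29.7 to 53.2) and 37 of 89 cells (41.6%, 31.2 to 52.5), at means of 4.84 ± 8.64 and 4.68 ± 10.0 CPM. Hoxb4 was in 31.5% and 23.6%, Hoxb2 in 32.9% and 15.7%, and Hoxb6 in 17.8% and 19.1%. Of 13304 genes, 4.4% were at least 2-fold higher and 4.67% lower at E8.5, and of the 4 members that passed the filter 0 were in either direction.

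The cells with Hoxb5 among these HPC also had more of the endothelial markers. At E8.25 the 7 markers summed to a median of 1230 CPM in 30 cells with Hoxb5 and 413.1 CPM in 43 without, and at E8.5 to 687.3 CPM in 37 and 255.1 CPM in 52. The 8 progenitor markers went the other way, at 477.8 and 1011 CPM at E8.25 and 768.2 and 985.2 CPM at E8.5. Erythroid markers were at 22.5 and 243.2 CPM, then 63.7 and 829.6 CPM. Total counts were similar (medians of 2048220 and 1867002, then 1581573 and 1552495.5). Cells with transcripts of both sexes were 13 of 30 and 13 of 43, then 17 of 37 and 23 of 52. Their part in this was not tested.

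At E9.5 fewer HPC had Hoxb5 and Hoxb6, while the intervals of Hoxb2 and Hoxb4 overlapped between E8.5 and E9.5. Hoxb5 was in 2 of 46 cells (4.35%, 0.531 to 14.8) at E9.5 against 41.6% at E8.5, at means of 0.171 ± 0.836 and 4.68 ± 10.0 CPM. Hoxb6 was in 17 of 89 cells at E8.5 and 0 of 46 at E9.5, which allows up to 6.52%, and its mean was at least 64.4-fold lower against a floor of 3 counts over the population. That bound rests on 2 E8.5 cells at 92.5 and 68.0 CPM, and was 34.5-fold without the first, 12.0-fold without both and 8.10-fold without cells with transcripts of both sexes. Hoxb2 and Hoxb4 were the other members seen at E9.5. Hoxb2 was in 15.7% (8.88 to 25.0) at E8.5 and 19.6% (9.36 to 33.9) at E9.5. Hoxb4 was in 23.6% (15.2 to 33.8) and 15.2% (6.34 to 28.9). Among 13620 genes, 11.1% were at least 2-fold higher and 14.3% lower at E9.5, and of 4 members that passed the filter Hoxb5 and Hoxb6 were lower. Without cells with transcripts of both sexes Hoxb6 was under 2-fold, at a log2 ratio of -0.41. The 46 cells were the deepest HPC, with a median total of 3082737.5 counts. The gate, the flow cell and the stage all changed at this step and cannot be told apart.

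At E10.5 Hoxa7 and Hoxa9 appeared in about 1 in 4 HPC. Hoxa9 was in 0 of 46 cells at E9.5 and 25 of 87 at E10.5 (28.7%, 19.5 to 39.4), at 17.7 ± 47.9 CPM and from 0.319 to 233.6 CPM in the cells that had it, with a median of 31.3. Hoxa7 was in 0 of 46 and 22 of 87 cells (25.3%, 16.6 to 35.8), at 7.09 ± 23.5 CPM and up to 188 CPM. Against a floor of 3 counts in the E9.5 population the means were at least 516.2-fold and at least 206.9-fold higher. Both stages had the same gate and flow cell. Hoxa10 was in 0 of 46 and 6 of 87 cells (6.90%). Of 13472 genes, 8.44% were at least 2-fold higher and 7.79% lower at E10.5, and of 5 members that passed the filter Hoxa7 and Hoxa9 were higher and 0 lower. Without cells with transcripts of both sexes Hoxa7 was in 23.5% and Hoxa9 in 29.4% of 68 cells. Hoxb5 (10.3%), Hoxb4 (10.3%), Hoxb2 (10.3%) and Hoxb6 (5.75%) were the main Hoxb members.

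**Figure D4:**
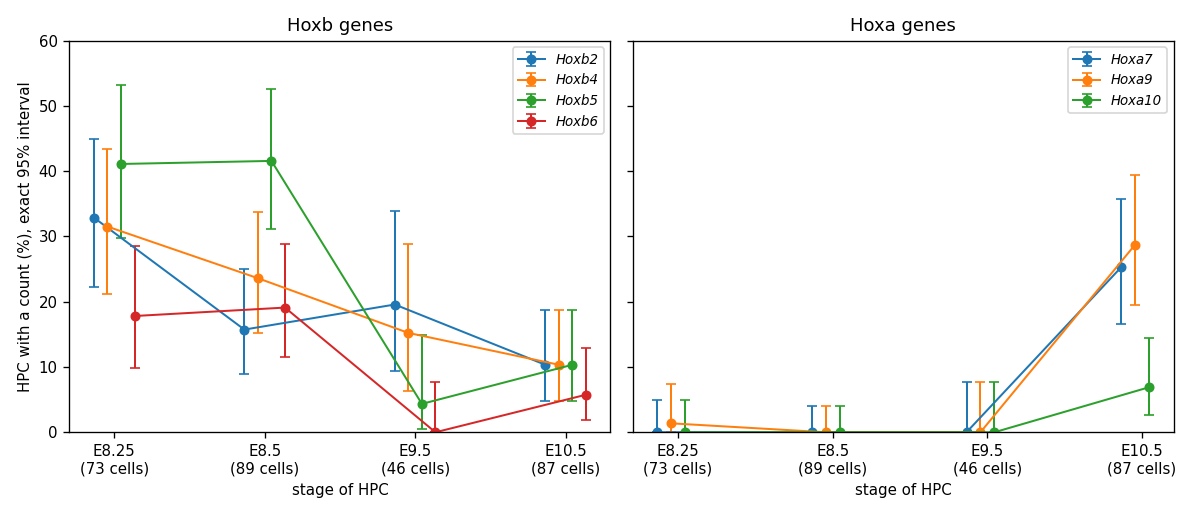
Percent of HPC with Hoxb genes (left) and Hoxa genes (right) at each stage, with exact 95% intervals and the number of cells under each stage. Hoxb5 drops from 42% at E8.5 to 4% at E9.5, and Hoxa7 and Hoxa9 go from 0 of 46 cells at E9.5 to 25% and 29% at E10.5.

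Hoxa7 and Hoxa9 were in the same HPC. Of 87 cells at E10.5, 20 had both, 5 had Hoxa9 only, 2 had Hoxa7 only and 60 had neither, where the product of the shares would give 6.32 cells with both. The 6 cells with Hoxa10 all had Hoxa9. In contrast, Hoxb4 was in 3 of 25 cells with Hoxa9 and 6 of 62 without. Hoxb members were found together at the earlier stages, such as Hoxb4 and Hoxb5 in 19 E8.25 HPC against a product of 9.45, and Hoxb5 and Hoxb6 in 14 E8.5 HPC against 7.07. In Endo the excess was small, with a median ratio to the product of 1.04 at E8.5 and 1.15 at E10.5 over 10 pairs of the same cluster. In Flk1-GFP+ cells at E7.75 the median ratio was 1.36 over 64 pairs from different clusters and 1.29 over 27 pairs of the same cluster, and the highest was that of Hoxa9 with Hoxb9 in 10 cells against 3.15. Cells of a population also differ in depth, and its part in these ratios was not tested.

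The 25 E10.5 HPC with Hoxa9 differed from the other 62 in further genes. These genes were chosen after their values were seen, by the difference in the share of cells over 15966 genes, and no test was made. Hlf, a transcription factor of haematopoietic stem cells, came first, in 24 of 25 cells with Hoxa9 (96.0%, 79.6 to 99.9) and 11 of 62 without (17.7%, 9.20 to 29.5). Hoxa7 was second. Flt3, a receptor of multipotent and lymphoid progenitors, was in 72.0% and 19.4%. The imprinted genes Igf2 and H19 were in 100% each, against 43.5% and 48.4%, and Cdkn1c, an imprinted cell cycle inhibitor, was in 80.0% and 25.8%. In all, 35 genes were at least 40 percentage points more frequent with Hoxa9 and 0 were as much less frequent. The median number of genes detected per cell was 9527 with and 9082 without Hoxa9, and its part in this was not tested.

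Other genes, named for their known roles, differed in both directions between the cells with and without Hoxa9. Mecom, a stem cell transcription factor, was in 16 of 25 and 10 of 62 cells, and Il7r, a receptor of lymphoid progenitors, in 11 and 5. Gata1, a factor of erythroid and megakaryocytic cells, was in 48.0% and 69.4% at 39.7 and 152.6 CPM. Runx1 and Meis1 were in every cell of both, at lower means with Hoxa9 (195.2 against 231.3 CPM, and 291.2 against 462.4 CPM). Gata2 was in 96.0% and 87.1% at 92.6 and 178.7 CPM. Kit was in 100% and 88.7% at 214.2 and 140.9 CPM. Median totals were 1549900 with and 1679692 without Hoxa9, and cells with transcripts of both sexes were 5 of 25 and 14 of 62.

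**Figure D5:**
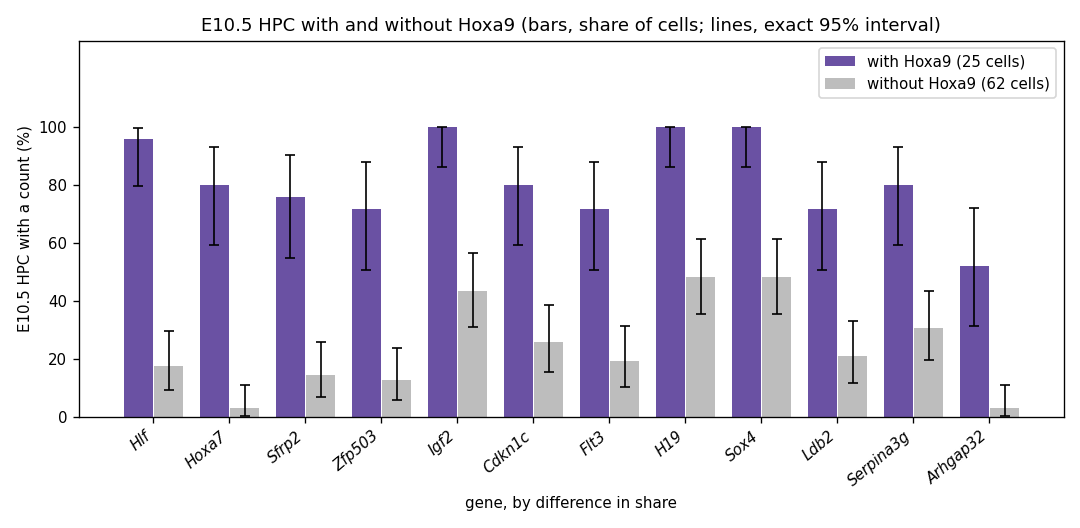
Percent of E10.5 HPC with a count of each of 12 genes in 25 cells with Hoxa9 (purple) and 62 cells without (grey), with exact 95% intervals. The genes are those with the greatest difference in share, chosen after the values were seen, and Hlf leads at 96% against 18%.

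No count of any member was seen in primitive erythrocytes. Each of the 15 members had 0 counts in 66 EryP cells at E8.5, which allows a share of up to 4.55%, and in 3 cells at E10.5. The E8.5 cells had a median of 2099062.5 counts and 7386 genes per cell, and globin genes took a median of 8.94% of the counts. Of the 24 other Hox genes, 0 were seen in EryP either. In Mk, Hoxb2 was in 2 of 37 cells at E8.5, and Hoxb4 and Hoxb9 in 1 of 73 each at E10.5. Of 12669 genes in Mk, 15.7% were at least 2-fold higher and 13.2% lower at E10.5, and no member was frequent enough to be compared. In Mac, Hoxb4 was in 4 of 25 cells (16.0%, 4.54 to 36.1) with at most 1.77 CPM, and Hoxb2 and Hoxb6 in 1 cell each.

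Some DNA-binding partners of HOX proteins, such as Meis1, were more widespread. Meis1 was in 50.3% and 55.7% of Flk1-GFP+ cells, in 95.9% to 100% of HPC, Mk and Mac, in 98.7% and 83.6% of Endo, and in 0 of 66 EryP. Meis2 was in 97.5% and 95.1% of Endo and 61.9% and 75.7% of Flk1-GFP+ cells, but in 8.70% to 15.1% of HPC. Pknox2 was in 29.3% and 34.3% of Flk1-GFP+ cells and in at most 1.37% of the others. Of 8 cofactors in the table, Pbx4 being absent, 0 were 2-fold higher or lower between E7.25 and E7.75. In HPC 1 of 6 cofactors that passed the filter was lower at E9.5 and 1 of 6, Pbx3, at E10.5, where 14.3% and 7.79% of all genes were. In Endo 2 of 6 (Pbx2 and Meis2) were higher and 1 (Meis1) lower at E10.5, against 18.4% and 17.1% of all genes.

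Among 8 activators of Hox genes in the table, Cdx4, a caudal factor that drives posterior Hox genes, was in 25.9% and 27.9% of Flk1-GFP+ cells at means of 16.7 and 43.2 CPM, and in at most 1.37% elsewhere. Cdx4, Aldh1a2, which makes retinoic acid, and Rarg, a retinoic acid receptor, were at least 2-fold higher at E7.75, and none of the 8 was lower. Rarb, another retinoic acid receptor, was in 50.6% and 31.1% of Endo and in at most 12.4% of any other population. Among 9 repressors and limiting genes, Cyp26a1, which breaks down retinoic acid, was in 43.5% and 27.9% of Flk1-GFP+ cells and at most 4.11% elsewhere. Cbx2, a Polycomb protein, was in 68.7% and 60.0% of Flk1-GFP+ cells and 4.11% to 24.3% of later populations with a count. Of these 9, Bmi1 alone was at least 2-fold lower at E7.75 (5.76% of all genes), and 3 of 8 (Suz12, Bmi1 and Rnf2) were lower in E9.5 HPC (14.3% of all genes). The Polycomb genes Ezh2 and Suz12 were in nearly every cell of every population with over 3 cells, EryP included, at 86.9% or more.

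The transcripts Haglr and Hoxb3os were most frequent in Flk1-GFP+ cells. Haglr, from the Hoxd cluster, was in 33.3% and 36.4% of Flk1-GFP+ cells and at most 2.74% of the later populations. Hoxb3os was in 39.5% and 42.9% of Flk1-GFP+ cells, in 19.2% and 20.2% of HPC at E8.25 and E8.5 but 2.17% and 0 at E9.5 and E10.5, and in 36.7% of E8.5 Endo but 4.92% of E10.5 Endo. The means of Hoxb2, which overlaps it, were 1.31 ± 2.90 and 4.42 ± 13.9 CPM in the 2 Endo populations.

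The members were compared with each other per kilobase of exon, as mean CPM over 12 populations weighted equally. Hoxd8 was first at 6.32 CPM per kilobase, but was at 1.17 without the 2 endothelial cells with the highest values. Hoxb5 was at 1.75 and Hoxb1 at 1.21. Hoxb9 and Hoxc8 were last at 0.199 and 0.203. Hoxd8 and Hoxb5 were among the first 3 by the mean CPM itself. The genes whose log2 means followed them most closely over these 12 populations were Lims2 (Pearson r = 0.98), Pcsk6, Meox1, Palm3 and Gm42537 for Hoxd8. They were Gdpd5 (r = 0.98), Adam12, Prex2, Edil3 and Coro2b for Hoxb5. These correlations rest on few populations that share stage and flow cell, and are a description. Those of Hoxd8 also rest on few cells. Its mean was 190.8 CPM in E10.5 Endo, which holds the 2 endothelial cells named above, and at most 11.5 CPM in any other population.

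Of the 24 Hox genes outside the filtered table, 20 had counts in the unfiltered table. Hoxb8 was in 20 of 79 E8.5 Endo (25.3%), 8 of 61 E10.5 Endo and 14 of 140 E7.75 Flk1-GFP+ cells, although it is not in the filtered table. Hoxa5 was in 11 of 87 E10.5 HPC (12.6%), beside Hoxa7 and Hoxa9. The Hoxc genes Hoxc4, Hoxc5, Hoxc6, Hoxc9 and Hoxc10 were in 16, 18, 11, 15 and 8 of 140 E7.75 Flk1-GFP+ cells, and in at most 2 cells of any other population each. Hoxd9 was in 7 E7.25 and 22 E7.75 Flk1-GFP+ cells and in no later cell. Hoxd11 and Hoxd13 were in 7 and 4 E7.25 cells and in 0 E7.75 cells. Hoxb13, Hoxc11, Hoxc12 and Hoxd12 had no count in any captured cell. With all 39 genes the mean number per cell was 3.14 and 5.47 in the Flk1-GFP+ stages, 3.61 and 3.13 in Endo, 1.63, 1.27, 0.413 and 1.25 in HPC, and 0 in EryP.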

How the data were processed

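Read counts per gene were made by the authors from paired-end, full-length libraries of single cells (Fluidigm C1, Nextera XT, reads of 100 bases), aligned with Rsubread to GRCm38 and counted with featureCounts, whose versions are not given in the sources used here. The deposited signal values are CPM, for which the authors scaled counts with scran size factors, so that they summed to between 699615.1 and 4176737.4 per cell. Both filtered tables held 926 cells and 15967 genes after the authors' scater filter, and 1073 cells and 47643 genes were in the unfiltered count table. The libraries are not stranded and carry no molecular identifiers.

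Cells were grouped by their titles. A gene was detected at 1 count or more, a share has an exact 95% Clopper-Pearson interval, a share of 0 is limited by 3 cells of the total, and a fold against 0 used a floor of 3 counts over the population. Stages were compared by log2 of mean CPM plus 1 over genes in at least 10% of cells at either stage, and at least 2-fold was called. Each population is 1 sample, so no p-value was computed. The members described with values were those in at least 10% of a population of 25 or more cells, and the genes most like the first 3 members by mean CPM were named by Pearson's r over 12 populations. The members and lists were chosen with earlier results of these data known. Sharing of exons was taken from GENCODE M21 (GRCm38). The depth was 483830 to 5943204 counts per cell, and intervals cover counting error only. The alternatives were detection at 10 counts, counts thinned to 840000 per cell (46 cells left out), all captured cells, single lanes, pseudocounts of 0.1 and 10, no filter, scaling to the cell total, and leaving out the highest cell or cells with transcripts of both sexes. A count over all 39 Hox genes, stage ratios without cells with transcripts of both sexes, and values of Hoxb6 and Hoxd8 without their highest cells, were added after seeing the data. Python 3.11.15, numpy 2.4.6, pandas 2.3.3 and scipy 1.17.1 were used. The fold calls were also run on drawn counts with counting error only and with changes in well-expressed genes. That run does not cover genes seen in a minority of cells, such as most members. A planned comparison of protein sequences was not run. Values of 1 member and 1 cofactor are not reported here, though counts over whole lists include them.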

Additional observations from a re-analysis of the deposited data

Results flagged for a closer look

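Hox genes outside the filtered table, which the comparisons above do not use, had counts in more than 3 cells of a population in the unfiltered table. Each is given only in the population where its share of cells was highest. In E7.75 Flk1-GFP+ cells (140 cells) these were Hoxd9 (22 cells, 15.7%), Hoxc5 (18), Hoxc4 (16), Hoxc9 (15), Hoxc6 (11), Hoxa11 (9), Hoxa13 (8), Hoxc10 (8), Hoxd4 (7) and Hoxa2 (5). In E7.25 Flk1-GFP+ cells they were Hoxd11 (7) and Hoxd13 (4). In E8.5 Endo they were Hoxb8 (20 of 79 cells, 25.3%) and Hoxb3 (10 of 79). In E10.5 HPC it was Hoxa5 (11 of 87 cells, 12.6%).

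The mean CPM of Hoxb5 moved in opposite directions in Endo and HPC between E8.5 and E10.5. Its log2 ratio was 1.01 in Endo and -1.52 in HPC, 2.53 apart. The difference was not tested, and the HPC gate was changed between these stages. The share of cells with Hoxb5 fell in both. It was 74.7% at E8.5 and 65.6% at E10.5 in Endo, and 41.6% and 10.3% in HPC. Scaled to the cell's own total, the rise in Endo was under 2-fold.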

How the results depend on the processing

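Detection at 10 counts lowered the mean number of members per cell to 1.503 and 2.55 in Flk1-GFP+ cells, 0.767, 0.483, 0.196 and 0.517 in HPC over the stages, 0.0270 and 0 in Mk, 0.04 in Mac, and 1.52 and 1.43 in Endo. The members in at least 10% of cells were then 4 at E7.25, 2, 1, 0 and 2 in HPC, 0 in Mac and 4 in E8.5 Endo. Thinning gave 0.0149 members per cell in E10.5 Mk and 2 members in at least 10% of E10.5 HPC. With all captured cells Mac had 0.146 members per cell and 0 in at least 10% of cells, and E10.5 HPC 2. Of members at least 2-fold apart between stages, a pseudocount of 10 left 0 higher in Flk1-GFP+ cells, 0 lower in HPC from E8.5 to E9.5, 1 higher from E9.5 to E10.5 and 2 higher in Endo. A pseudocount of 0.1 gave 1 higher and 1 lower between the first 2 HPC stages and 2 lower between the last 2. Lanes 6 and 7 alone gave 1 lower in Flk1-GFP+ cells, and lane 7 of both flow cells 5 higher and 1 lower. Between E8.25 and E8.5 HPC, no filter gave 1 lower, scaling to the cell total 1 higher, and leaving out cells with transcripts of both sexes 1 lower, and the last left 1 lower between E8.5 and E9.5. In Endo thinned counts left 3 higher and the share rule 0. By shares, the log2 ratios of Hoxb2, Hoxb4 and Hoxb5 in Endo turned to -0.25, -0.23 and -0.19. The cause was not tested. The share of cells left its interval in 54 of 195 pairs at 10 counts, in 10 with thinned counts, in 8 without cells with transcripts of both sexes and in 0 with all captured cells. Depth limits the genes of 1 or 2 counts per cell most. No paired analysis was possible because no result comes from a test and cells carry no number shared between populations.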

Other observations

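At E7.75 some further members were more frequent in Flk1-GFP+ cells with Evx1. Hoxd8 was in 54.8% of the 31 cells with Evx1 and 12.8% of those without, and Hoxb6 in 90.3% and 49.5%. Hoxb2 (45.2% and 45.0%) and Hoxa9 (16.1% and 14.7%) were at like shares. At E7.25 Hoxd8 was in 7.04% of 71 cells with Evx1 and 9.21% of 76 without. Hoxb6 was in 26.8% and 30.3% of these E7.25 cells.

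In E10.5 HPC, the 25 cells with Hoxa9 had counts of Cdh5, an endothelial cadherin, in 68.0% (46.5 to 85.0), against 30.6% (19.6 to 43.6) of the 62 without, although both had been sorted as CDH5-. Mean levels of Cdh5 were 12.8 and 13.1 CPM. Csf1r, the receptor of macrophage growth factor, was in 64.0% and 71.0% of them. The gene least frequent in cells with Hoxa9 was Sfmbt2, in 36.0% and 74.2%. These genes of E10.5 HPC were given after their values were seen.

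The 9 E10.5 HPC with Hoxb5 had endothelial markers at a median sum of 162.7 CPM and 2.44 other members per cell, against 72.4 CPM and 0.756 in the 78 without.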
